A study of Homo sapiens with 4 samples.

Results

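The genes described here are the 9 that encode the hypoxia-inducible factor subunits HIF1A, EPAS1, ARNT and ARNT2, the oxygen-sensing hydroxylases EGLN1, EGLN2, EGLN3 and HIF1AN, and the ubiquitin ligase subunit VHL. They were chosen by symbol, with the contrast between the cell lines already known, and all 9 were found among the 15220 genes of the deposited transcript table. The contrast between the cell lines is therefore only a description for them. Their p-values are not printed, and which of them pass the threshold of the test over all genes is stated as part of that description and not as evidence about the set. Stranded mRNA was sequenced from wild type PANC-1, a human pancreatic adenocarcinoma cell line, and from PZT-2, 1 clone of PANC-1 selected for stable shRNA knockdown (KD) of 3 isoforms of the histone variant H2A.Z, with 2 libraries per cell line. Both lines were grown in DMEM with serum at the same passages, and no oxygen level is given for either. All PZT-2 libraries come from a single clone and PANC-1 carries no shRNA, so the KD, the vectors, the selection and the clone cannot be told apart. The labels do not say that the libraries of a line came from separate cultures, and p-values then measure only the spread between these libraries.

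Hypoxia-inducible factors are heterodimers of an oxygen-labile alpha subunit and a stable beta subunit that bind DNA at hypoxia response elements. In the presence of oxygen the EGLN enzymes hydroxylate prolines of the alpha subunit, the VHL ligase recognises the hydroxylated protein and the proteasome degrades it, while HIF1AN hydroxylates an asparagine and blocks coactivator binding. Since this control acts mainly on the protein, mRNA levels describe the supply of each component and not the activity of the pathway. In bulk RNA, fewer expressing cells and less RNA per cell cannot be told apart.

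Recovered totals ranged from 12861102 to 15717129 counts per library. The targeted gene H2AFZ had normalized counts of 6387 and 6031 in PANC-1 and 2211 and 2257 in PZT-2, and H2AFV had 3343 and 3451 against 2589 and 2716. Both were called lower in PZT-2, by 1.47 and 0.36 on the log2 scale. All 6 ductal epithelium markers were listed, at a summed level of 7260 to 7294 TPM (transcript abundance corrected for length and depth) in PANC-1 and 3773 to 3850 TPM in PZT-2, most of it from KRT8, KRT18 and KRT19. None of the 3 acinar or 2 islet markers was listed. Of the fibroblast markers 1 of 3 was listed (COL1A1, 2.86 to 11.4 TPM over the 4 libraries), of the endothelial markers 1 of 2 (PECAM1, 0.0757 to 0.236 TPM) and of the leukocyte markers 1 of 2 (CD68, 114 to 122 TPM), while PTPRC was not. The part of the keratin difference in the results below was not tested.

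Promoter windows, from 250 bases before to 50 bases after an annotated start, were read from RefSeq sequences on GRCh38.p14. The table held 9 windows for 7 of the 9 genes, and ARNT2 and VHL had no entry. The core of the hypoxia response element was searched as ACGTG or GCGTG on either strand. It was found in 4 of the 9 windows, and 48.4% of all 35116 windows of this length held it. Shown are the windows with a core of the genes that passed the threshold between the cell lines. The capitals mark the core, which in EGLN2 is the palindrome CACGTG, also the E-box, so that ACGTG is read once on each strand. EPAS1 lies at chr2:46297157-46297456 on the plus strand and EGLN2 at chr19:40798941-40799240 on the plus strand.
EPAS1: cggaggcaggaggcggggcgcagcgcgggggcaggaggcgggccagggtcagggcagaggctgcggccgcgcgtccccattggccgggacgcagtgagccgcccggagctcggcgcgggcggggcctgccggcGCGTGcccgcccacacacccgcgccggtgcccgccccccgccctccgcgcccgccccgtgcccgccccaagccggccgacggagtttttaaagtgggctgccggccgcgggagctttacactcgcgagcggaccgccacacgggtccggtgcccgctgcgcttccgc
EGLN2: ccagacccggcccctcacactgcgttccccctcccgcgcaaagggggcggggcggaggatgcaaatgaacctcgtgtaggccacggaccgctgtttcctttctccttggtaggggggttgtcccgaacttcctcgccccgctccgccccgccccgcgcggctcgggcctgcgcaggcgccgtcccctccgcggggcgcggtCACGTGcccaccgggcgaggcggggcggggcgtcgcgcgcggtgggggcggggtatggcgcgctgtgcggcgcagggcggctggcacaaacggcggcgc
The EGLN1 window at chr1:231422238-231422537 on the minus strand held 1 ACGTG, and 1 of the 2 HIF1A windows held 1 GCGTG. No core was found in the windows of ARNT, EGLN3 or HIF1AN or in the other EGLN2 window. GC content was 76.3% in the EGLN2 window shown and 80.0% in those of EPAS1 and EGLN1, against a median of 58.7% over all windows. These matches describe letters in a window and are not evidence of binding.

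The set divided between the cell lines. EPAS1 and VHL were higher in PZT-2, ARNT2 was nearly lost, EGLN2 was lower, and HIF1A, ARNT, EGLN1, EGLN3 and HIF1AN did not pass the threshold. A gene is called here when its Benjamini-Hochberg adjusted p, over all 15100 genes tested with the quasi-likelihood test of edgeR, is below 0.05. All 9 genes passed the filter on low counts and 4 were called, and over all genes tested 28.4% were called, 14.7% as higher and 13.7% as lower in PZT-2. The libraries of the cell lines did not overlap for 7 of the 9 genes, 5 higher and 2 lower in PZT-2, and for 66.3% of all genes. The median log2 fold change was 0.11 over the 9 genes and 0.00082 over all genes tested. Because the genes were chosen with this contrast known, nothing is read from these counts. Values below are normalized counts, scaled to the mean library, and fold changes are PZT-2 against PANC-1 with their standard error (SE).

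**Figure D1:**
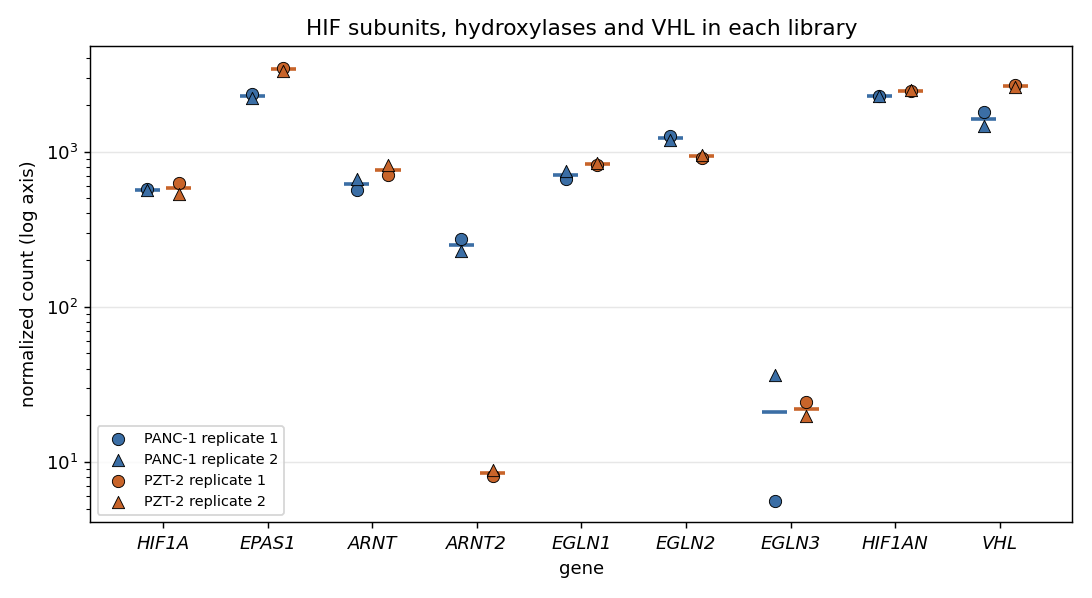
Normalized counts (log axis) of the 9 genes in each of the 4 libraries, with circles for replicate 1, triangles for replicate 2 and a bar for the mean of each cell line. ARNT2 drops from 228 to 272 in PANC-1 to 8.05 to 8.89 in PZT-2, EPAS1 and VHL are higher in both PZT-2 libraries, and the 2 PANC-1 libraries of EGLN3 stand far apart.

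The alpha subunits were represented mainly by EPAS1, which encodes HIF-2alpha. EPAS1 had normalized counts of 2347 and 2235 in PANC-1 and of 3494 and 3300 in PZT-2. The lines did not overlap and PZT-2 was higher, with means of 2291 ± 79.6 and 3397 ± 137 (SD, n = 2), a fold of 1.48 and a log2 fold change of 0.57 (SE 0.0606). HIF1A, which encodes the widely expressed HIF-1alpha, had 573 and 564 in PANC-1 and 630 and 532 in PZT-2. The cell lines overlapped for HIF1A, and its log2 fold change of 0.03 (SE 0.0994) was smaller than its SE. On the TPM scale, which corrects for transcript length, EPAS1 was 3.20 and 3.09 times as abundant as HIF1A in PANC-1 and 4.33 and 4.84 times in PZT-2. EPAS1 thus made up 75.5% and 76.2% of the summed TPM of these alpha subunits in PANC-1 and 81.2% and 82.9% in PZT-2. HIF3A, the remaining alpha subunit gene and not among the 9, had only 8 to 15 recovered counts per library.

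The beta subunits showed the largest difference of the set. ARNT2, a beta subunit gene best known from neurons and kidney, had 242 and 252 recovered counts in PANC-1 and 8 and 9 in PZT-2. Its normalized counts were 272 and 228 in PANC-1 and 8.05 and 8.89 in PZT-2, and the fold fitted by edgeR was 29.0-fold lower in the clone (log2 fold change -4.86, SE 0.220). Among all 15100 genes tested, 34 had a lower log2 fold change than ARNT2. ARNT, the broadly expressed beta subunit shared by HIF-1alpha, HIF-2alpha and the aryl hydrocarbon receptor, had 567 and 671 in PANC-1 and 712 and 821 in PZT-2. ARNT was higher in each PZT-2 library than in either PANC-1 library, but its log2 fold change of 0.31 (SE 0.111) did not pass the threshold. By TPM, ARNT2 made up 26.2% and 20.0% of the summed beta subunit transcripts in PANC-1 and 0.828% and 0.794% in PZT-2. The sum of ARNT and ARNT2 was 20.9 ± 1.37 TPM in PANC-1 and 19.9 ± 1.96 TPM in PZT-2 (SD, n = 2), a difference within the spread of the libraries. A separate antisense gene of the same locus, ARNT2-AS3, had 5 to 11 counts per library, and its log2 fold change of 0.35 (SE 0.612) was not called. Whether the strand was used in counting is not given in the sources used here, and without it reads of overlapping antisense genes cannot be told apart.

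VHL encodes the substrate-recognition subunit of the ligase that marks hydroxylated alpha subunits for degradation. It had normalized counts of 1814 and 1464 in PANC-1 and of 2714 and 2630 in PZT-2. The PZT-2 libraries agreed closely while the PANC-1 libraries were further apart, and the means of 1639 ± 247 and 2672 ± 59.2 (SD, n = 2) gave a fold of 1.63 and a log2 fold change of 0.71 (SE 0.102). Without PANC-1 replicate 2, the lower of the PANC-1 libraries, VHL had a log2 fold change of 0.55 and was still called.

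Of the prolyl hydroxylases only EGLN2 was called. EGLN2, which encodes PHD1, had normalized counts of 1265 and 1185 in PANC-1 and of 914 and 959 in PZT-2. The lines did not overlap and PZT-2 was lower, with means of 1225 ± 56.7 and 936 ± 31.9 (SD, n = 2) and a log2 fold change of -0.39 (SE 0.0685), and the call was lost without PZT-2 replicate 1 (-0.35). EGLN1, which encodes PHD2, the main oxygen sensor of most cells, had 666 and 751 in PANC-1 and 827 and 852 in PZT-2, without overlap, and its log2 fold change of 0.24 (SE 0.0820) was not called. EGLN3 encodes PHD3 and is itself a classical hypoxia-induced gene. It had only 5 and 40 recovered counts in PANC-1 and 24 and 20 in PZT-2. The PANC-1 libraries, at normalized counts of 5.62 and 36.1, lay on either side of both PZT-2 libraries at 24.1 and 19.8, and the log2 fold change of 0.03 (SE 0.716) has no stable direction. It was -0.72 without PANC-1 replicate 1 and 1.93, and then called, without PANC-1 replicate 2.

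On the TPM scale EGLN2 was 86.5% and 82.8% of the prolyl hydroxylase transcripts in PANC-1 and 77.9% and 78.5% in PZT-2. The share of EGLN1 was 13.2% and 15.2% in PANC-1 and 20.5% and 20.3% in PZT-2, and that of EGLN3 was between 0.297% and 1.99% in all 4 libraries. The summed level of the 3 enzymes was 88.4 ± 1.01 TPM in PANC-1 and 72.5 ± 1.90 TPM in PZT-2 (SD, n = 2). HIF1AN, which encodes the asparaginyl hydroxylase FIH, had the smallest SE of the set. It had normalized counts of 2277 and 2302 in PANC-1 and of 2462 and 2496 in PZT-2, with a log2 fold change of 0.11 (SE 0.0540) that was not called.

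Ranked by mean TPM, the order of the 9 genes in PANC-1 was EGLN2 (74.8 ± 3.16), EPAS1 (56.2 ± 1.79), VHL (45.9 ± 6.73), HIF1AN (41.7 ± 0.435), HIF1A (17.9 ± 0.127), ARNT (16.1 ± 1.96), EGLN1 (12.6 ± 1.10), ARNT2 (4.80 ± 0.593) and EGLN3 (1.00 ± 1.04). Of these neighbours only VHL and HIF1AN overlapped between libraries. In PZT-2 the order was EPAS1 (82.6 ± 3.50), VHL (74.1 ± 1.72), EGLN2 (56.7 ± 1.78), HIF1AN (44.7 ± 0.350), ARNT (19.7 ± 1.95), HIF1A (18.1 ± 2.19), EGLN1 (14.8 ± 0.279), EGLN3 (1.05 ± 0.149) and ARNT2 (0.161 ± 0.0111), and only ARNT and HIF1A overlapped. EGLN2 moved from the first to the third place and ARNT2 from the eighth to the last. These are SD over 2 libraries.

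Transcripts gave the same main isoforms in both lines. The table listed 16 transcripts of the 9 genes, a single one for each of EPAS1, ARNT2, EGLN1, EGLN3 and HIF1AN. NM_001530 held 93.5% to 97.9% of the HIF1A counts, NM_001668 held 85.2% to 97.8% of the ARNT counts and NM_080732 held 96.3% to 98.8% of the EGLN2 counts. For VHL, NM_000551, which encodes the full-length protein, held 93.6% and 86.4% in PANC-1 and 90.2% and 90.8% in PZT-2. The exon-skipping transcript NM_198156 held 2.07% and 8.41% of VHL in PANC-1 and 2.29% and 4.49% in PZT-2, so the cell lines overlapped. None of the 16 transcripts was called by edgeR with the filter used for genes, where 0.148% of the 30403 transcripts tested were called. With at least 10 counts required in all 4 libraries, edgeR called 1 of the 11 that remained, the EPAS1 transcript, and 5.85% of all transcripts tested. DESeq2 called 6 of the 16, and 14.7% of the 29813 transcripts to which it gave an adjusted p. These 6 were the single transcripts of EPAS1 and ARNT2, the main ones of ARNT, VHL and EGLN2, and NM_001243084 of HIF1A, which held 4.22% and 1.66% of its gene in PANC-1 and was estimated at 0 in PZT-2.

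EGLN2 shares sequence with the read-through gene RAB4B-EGLN2, and kallisto divides reads between them. RAB4B-EGLN2 had normalized counts of 129 and 8.13 in PANC-1 and of 105 and 54.4 in PZT-2, a spread within each line larger than the difference between the lines. With both genes summed, the values were 1395 and 1193 in PANC-1 and 1018 and 1013 in PZT-2, and the log2 fold change of -0.35 (SE 0.0864) was still called.

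Each gene was set beside the 10 tested genes on each side of it on its chromosome. VHL, on chromosome 3, had neighbours with a median log2 fold change of 0.46, of which 13 of 20 were called higher and 0 lower, and VHL exceeded that median by 0.24. The difference was not confined to these neighbours. Over all 835 tested genes of chromosome 3 the median was 0.43, the highest of any chromosome, and 403 were called higher. The medians of chromosomes 15, 2 and 19 were 0.24, 0.12 and -0.05. EGLN2, on chromosome 19, had neighbours with a median of -0.25, of which 2 were called higher and 4 lower, and its difference from that median was -0.14. The neighbours of EGLN2 include RAB4B-EGLN2, which shares sequence with it. EPAS1, on chromosome 2, stood 0.38 above a neighbour median of 0.19, with 7 neighbours called higher and 2 lower. ARNT2, on chromosome 15, went against its neighbours, whose median was 0.31 with 6 called higher and 1 lower. For the other 5 genes the neighbour medians were between -0.13 and 0.02. The neighbours of HIF1AN nevertheless differed in both directions, with 6 called higher and 5 lower. The part of the surrounding region, or of the whole chromosome, in the values of VHL, EGLN2 and EPAS1 was not tested.

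**Figure D2:**
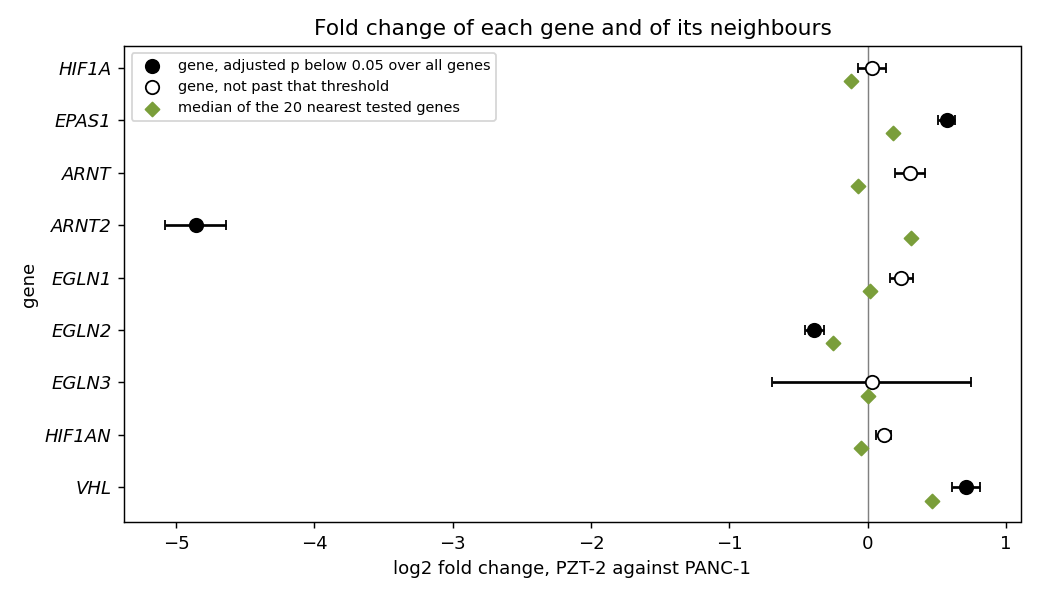
Log2 fold change of each of the 9 genes, PZT-2 against PANC-1 (circles with SE bars from edgeR, filled where the gene was called), and the median of its 20 neighbouring tested genes (diamonds). Of the called genes, VHL (0.71 against 0.46), EGLN2 (-0.39 against -0.25) and EPAS1 (0.57 against 0.19) lie on the same side as their neighbours. ARNT2 at -4.86 lies far from its neighbours at 0.31.

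The genes with the most similar pattern were searched among genes whose normalized count averaged at least 100, by Euclidean distance of centred log2 CPM over the 4 libraries. The nearest to ARNT2 were SCD (distance 0.23, log2 fold change -4.74) and FADS2 (0.87, log2 fold change -3.80), both fatty acid desaturases. Nearest to VHL were SIAH2 (0.030) and MICALL1 (0.047), and nearest to EPAS1 were SEMA4C (0.024) and TFG (0.038). For EGLN2 they were NSMCE1 (0.0061) and PPP1CA (0.020). With 4 libraries in 2 groups, such nearness says little beyond a like difference between the lines.

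A further 90 genes came from 5 lists written with earlier results of these data known. They are called pathway genes for short, although some of the lists are a protein family or an enzyme class. Of the 90 genes, 85 were tested and 39 (45.9%) were called, 27 higher and 12 lower in PZT-2, with a median log2 fold change of 0.17. Over all genes tested the share called was 28.4%. Because earlier results were known, the shares and adjusted p-values given for these lists are a description. They are not evidence about the lists or the pathway. Of the genes called higher, SIAH2, RUVBL1, P4HTM, PLOD2, PFKFB4 and FAM162A lie on chromosome 3, where the median over all genes was 0.43. The 5 lists had different medians, lowest for the coactivators and highest for the targets. Neighbour medians are given for only some of the genes named below.

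Of the 19 genes of the ligase and turnover list, 2 were called higher and 2 lower (21.1%, near the 28.4% of all genes), with a median of -0.028. RBX1, the RING subunit of the VHL ligase, fell by 0.26 on the log2 scale (adjusted p = 0.0353, edgeR). The other core subunits were not called, with log2 fold changes of -0.13 for ELOB, -0.03 for ELOC and 0.04 for CUL2. UBE2D3, a ubiquitin-conjugating enzyme, fell by 0.23 (adjusted p = 0.0449, edgeR). SIAH2, a ligase that targets prolyl hydroxylases, rose from 639 and 523 to 946 and 917 normalized counts (log2 fold change 0.69, adjusted p = 0.00466, edgeR), and its own neighbours had a median of 0.39. WSB1, the adaptor of a ligase linked to VHL turnover, rose by 0.31 (adjusted p = 0.0134, edgeR).

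Of the 13 coactivators and competitors, 3 were called higher and 4 lower (53.8%, beside 28.4% of all genes, median -0.14). MXI1, a MYC antagonist and known HIF target, rose from 121 and 106 to 282 and 275 normalized counts (log2 fold change 1.30, adjusted p = 0.00103, edgeR). PKM, a glycolytic enzyme described as a HIF coactivator, rose by 0.27 and RUVBL1, a AAA+ ATPase, by 0.17. The neighbours of PKM had a median of 0.19 and those of RUVBL1 0.42. CITED4, which competes for the CBP/p300 coactivators, fell by 0.67, RUVBL2 fell by 0.51 and MED12, a subunit of the Mediator kinase module, fell by 0.47 beside neighbours with a median of -0.46. The adjusted p of these 5 genes lay between 0.00185 (RUVBL2) and 0.045 (RUVBL1).

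A chosen list of 13 other bHLH-PAS genes, the family to which the HIF subunits belong, had 10 tested. Of these, 2 were called higher and 3 lower (50%, beside 28.4% of all genes, median 0.043). AHR, the aryl hydrocarbon receptor and a partner of ARNT, had 649 and 600 normalized counts in PANC-1 but only 425 and 425 in the clone (log2 fold change -0.55, adjusted p = 0.00432, edgeR). The circadian transcription factor gene CLOCK fell by 0.45, while ARNTL2 rose by 0.57 and NPAS2, a paralog of CLOCK, by 0.38. The neighbours of ARNTL2 had a median of -0.08 and those of NPAS2 0.24. The coactivator NCOA3 fell by 0.25 (adjusted p = 0.0493, edgeR). NPAS3, NPAS4 and SIM1 were not in the table.

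A chosen list of oxygen-dependent dioxygenases other than the EGLN enzymes and HIF1AN, with the collagen prolyl hydroxylase subunit P4HB, had 21 genes tested. Of these, 8 were called higher and 2 lower (47.6%, beside 28.4% of all genes, median 0.21). The collagen prolyl hydroxylase subunits P4HA1 and P4HA2 rose, P4HA2 from 429 and 476 to 911 and 899 normalized counts (log2 fold change 1.00, adjusted p = 0.000606, edgeR) and P4HA1 by 0.67. The neighbours of P4HA1 had a median of 0.04 and those of P4HA2 -0.25. KDM3A, a histone H3K9 demethylase and known HIF target, rose by 0.79 (adjusted p = 0.00533, edgeR), and its own neighbours had a median of 0.28. TET2, a 5-methylcytosine dioxygenase, fell from 128 and 151 to 76.5 and 71.2 normalized counts (log2 fold change -0.92, adjusted p = 0.0081, edgeR). ADO, a thiol dioxygenase that senses oxygen independently of HIF, fell by 0.24 (adjusted p = 0.0431, edgeR).

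The textbook HIF targets had 12 genes called higher and 1 lower of 22 tested (59.1%, beside 28.4% of all genes). Their median log2 fold change was 0.41. NDRG1, a stress-response gene, had 178 and 168 normalized counts in PANC-1 but 1367 and 1430 in the clone (log2 fold change 3.02, adjusted p = 4.1e-05, edgeR). AK4, a mitochondrial adenylate kinase, rose by 2.51 (adjusted p = 8.5e-05, edgeR) and ANGPTL4, an inhibitor of lipoprotein lipase, by 2.23 (adjusted p = 5e-05, edgeR). ENO1, a glycolytic enolase on the same list, fell from 56112 and 54023 to 41541 and 41365 normalized counts (log2 fold change -0.41, adjusted p = 0.000858, edgeR). CA9 and EPO were not tested. CA12, named after its values were seen, had 0 counts in both PANC-1 libraries and 22 and 15 in PZT-2, at least 6.07-fold higher against a floor of 3 counts per library, a bound for counting error only, and the list median stayed at 0.41 with CA12 at this bound.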

How the data were processed

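RNA-seq of PANC-1 and PZT-2 (2 libraries each) was re-analysed. Libraries of other cells in the study are not analysed here. Per the labels, the authors trimmed reads with Trim Galore 0.4.1, quantified RefSeq transcripts with kallisto 0.43.0 and tested them with sleuth 0.29.0. The submitters' processing notes name hg19, and the index release is not given in the sources used here. The authors deposited estimated counts (kallisto expected counts), TPM and effective and transcript lengths for each transcript, and a table of sleuth effects and p and q values, which was used only for gene symbols.

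Each library's deposited estimated counts carried 1 factor (1.16, 0.935, 1.03 and 1.01 in the order of replicates 1 and 2 of PANC-1 and of PZT-2), which was undone. Of values from 0.5 to 30 in genes with 1 transcript, 45.3% to 46.5% were then whole to within 0.01, against 0.81% to 2.41% as deposited. Of 31077 transcripts, 27049 took the table's symbol, 3925 were named through their accession, and 103 stayed unnamed (0.0466% of counts). TPM were summed per gene as deposited. No column of per-sample values was left out (0 columns).

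Gene sums were rounded, filtered (at least 5 counts in at least 2 libraries), normalized by TMM and tested with the quasi-likelihood test of edgeR 4.0.16 in R 4.3.3, with a Benjamini-Hochberg adjusted p below 0.05 over all genes. The SE was the log2 fold change divided by the root of F. The test was also run on counts simulated with the spread fitted to these data, so that run could not check the spread itself. No exact permutation test was run, since 2 libraries against 2 allow no p below 0.333. DESeq2 1.42.0, limma 3.58.1 on log2(TPM + 1) and log2(TPM + 0.1), other filters and scalings, the replicate block and leaving out each library were alternatives. Summing only transcripts with a symbol in the deposited table, and adding RAB4B-EGLN2 to EGLN2, were added after seeing the data.

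The members and lists were chosen with earlier results of these data known. Named besides the 9 genes were, from each pathway list, up to 3 called genes per direction with the largest log2 fold change whose normalized count averaged at least 100, the core subunits of the VHL ligase (ELOB, ELOC, CUL2, RBX1), the 2 genes nearest in pattern to each called gene, H2AFZ and H2AFV, and cell type markers. Other genes named were picked after their values were seen. Same-numbered libraries did not deviate together (correlation -0.023), so replicate numbers were not used as pairs.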

Additional observations from a re-analysis of the deposited data

How the results depend on the processing

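EPAS1 and VHL were called in all 16 alternatives to the test (log2 fold change 0.53 to 0.61 and 0.55 to 0.86), and ARNT2 in all 15 that could test it (-4.99 to -2.32, the weaker end on log2(TPM + 1)), while it has no value with at least 10 counts in all 4 libraries. EGLN2 was called in 15 of 16 (-0.44 to -0.35) and lost without PZT-2 replicate 1, where it was -0.35. HIF1A and HIF1AN were called in 0 of 16 (HIF1A -0.0953 to 0.1497). ARNT was gained in 2 (0.31 with the replicate block, 0.43 without PANC-1 replicate 2), EGLN1 in 1 (0.33 without PANC-1 replicate 2) and EGLN3 in 1 (1.93 without PANC-1 replicate 2). The sign turned for HIF1A without PZT-2 replicate 1 (-0.0953) and for EGLN3 with the version 4 dispersion estimate of edgeR (-0.0327), without PANC-1 replicate 1 (-0.7209) and without PZT-2 replicate 1 (-0.1241). Leaving out 1 library gave 3 to 7 of the 9 genes called, with 7 without PANC-1 replicate 2, 2014 to 4602 genes called in all against 4283, the lower counts being 2450 (PZT-2 replicate 1 left out) and 2014 (PZT-2 replicate 2 left out), and 23 to 43 other pathway genes called against 39, with 23 without PZT-2 replicate 2. The library left alone in its line is then taken to have the spread seen in the other line. The most abundant transcript alone gave 2132 genes called. The replicate block gave 3755 genes, 5 of the 9 and 35 other pathway genes called. For transcripts, 45 were called (5615 at an unadjusted p below 0.05), against 1208 with at least 10 counts in all 4 libraries, 4396 with DESeq2, 0 with the replicate block in edgeR (4055 unadjusted) and 0 to 0 without 1 library in edgeR (4135 to 5710 unadjusted), so transcript calls depend on the filter and the tool. The cause of these changes was not tested. Low counts limit EGLN3 in all libraries and ARNT2 in PZT-2.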

Other observations

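The 2 PANC-1 libraries differed from each other in several genes of the oxygen pathway, picked here after their values were seen. Other genes of the pathway were close between them. For HIF1A, HIF1AN and SLC2A1 only 9.6%, 6.7% and 16.8% of all genes tested had a smaller absolute log2 difference. EGLN3 was 6.42 times as high in replicate 2 (36.1 against 5.62 normalized counts), and 98.8% of genes had a smaller difference. It had only 5 and 40 recovered counts, and this share is over genes of all abundances. DDIT4, an inhibitor of mTORC1 signalling on the target list, went the other way, with 2912 in replicate 1 and 894 in replicate 2, and 98.1% of genes had a smaller difference. VEGFA, the angiogenic growth factor, had 1686 and 1055. In PZT-2 the libraries were closer for all 3 genes, with 24.1 and 19.8 for EGLN3, 2607 and 2361 for DDIT4 and 1474 and 1533 for VEGFA. The circadian gene ARNTL was the opposite case, at 15.7 and 29.8 in PANC-1 and 41.3 and 6.92 in PZT-2. The spread of these genes is a value of single libraries, and its cause was not tested.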
